A study of Mus musculus with 3 samples.

Results

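The axoneme genes of motile cilia were examined in droplet RNA profiles of mouse lung, across cell classes and between dissociated cells and isolated nuclei. A gene was included when its symbol was in both deposited count tables and began with Dnah, Dnai, Cfap, Rsph, Drc, Tekt, Spag6, Spag16, Spag17 or Hydin, or was Foxj1, Ccdc39, Ccdc40, Ccdc153, Tmem212 or Dynlrb2. Of the 21507 genes shared by the tables, 78 met this rule. The rule used names alone and no measured value. All lungs came from wild type C57Bl/6J mice. The study held 1 library of cells, from fresh lung treated with collagenase plus DNAse, dissociated mechanically and passed over an Optiprep gradient. It also held 2 libraries of nuclei, from adult lung that had been snap frozen and lysed in Nuclei EZ Lysis buffer. No label gives the number of animals behind a library. With 1 library of cells, the p-values rest on the spread between the 2 libraries of nuclei alone, and that spread may be technical. Variation among preparations of cells was not measured. Fresh against frozen tissue, digestion against lysis, and cell against nucleus coincide in this design and cannot be told apart. The labels state no age for the mice of the cell library, so a difference in age cannot be told apart from these either.

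The axoneme is the microtubule core of a cilium, with a ring of outer doublets around a central pair. Dynein arms on the doublets walk along the neighbouring doublet. Radial spokes and the central pair pass regulatory signals to the arms, the nexin-dynein regulatory complex links adjacent doublets, and tektins are filaments within the doublet wall. In the lung, motile cilia are carried by the multiciliated cells of the airways, where Foxj1 is the transcription factor that switches on much of this gene set together with RFX factors.

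The 78 genes differ widely in size. Their genomic span (from first to last annotated base) ran from 3.57 kb for Tekt2 to 898.2 kb for Spag16, with a median of 48.5 kb. 15 genes were under 20 kb, 35 between 20 and 80 kb, and 28 over 80 kb. By role, the set held 15 dynein heavy chains, 3 intermediate or light chains, 13 central pair genes, 10 radial spoke genes, 3 genes of the nexin-dynein regulatory complex, 5 tektins, 23 other Cfap genes and 6 single genes. 38 of the 78 overlapped another annotated gene, and whether the counting used strand is not given in the sources used here. Cfap47 and Cfap410, placed from RefSeq without a strand, were not checked for overlap. Dnah7a, Dnah7b and Dnah7c are near-identical copies, as are Rsph3a and Rsph3b, and Spag6 and Spag6l, so the split of reads among them is uncertain.

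The sequences before the gene starts were read because RFX factors bind the X-box, a pair of inverted arms, and the genes are known to be switched on together. Windows from 250 bases before to 50 bases after the start (RefSeq, GRCm38.p6) were present for 65 of the 78 genes. The letters GTTGCC, the core of an X-box arm, were in the windows of 26 of these 65 genes (40.0%) on either strand, against 14.1% of all 27025 genes with windows. The full X-box, with both arms, was in 7 of 65 (10.8%), against 2.16% of all genes. These were Cfap126, Cfap206, Cfap298, Cfap77, Rsph9, Spag6l and Tekt4. Some X-box matches hold a GTTGCC, so both counts overlap. The forkhead letters GTAAACA were in 4 of 65 (6.15%), against 4.05%. These are letter matches, described without a test. The 250 bases before the start are printed for 5 genes whose upstream stretch overlaps no annotated exon, chosen to show these letters in 2 short tektins, in 2 long genes and, for Cfap206, in a full X-box. Capitals mark GTTGCC, its reverse complement, or the full X-box.
Tekt1, chr11:72361883-72362132, minus strand: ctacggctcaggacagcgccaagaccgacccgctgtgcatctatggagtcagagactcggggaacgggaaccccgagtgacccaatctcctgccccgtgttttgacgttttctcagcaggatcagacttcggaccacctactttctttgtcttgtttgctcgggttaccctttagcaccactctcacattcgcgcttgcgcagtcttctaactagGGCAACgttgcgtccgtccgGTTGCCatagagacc
Tekt2, chr4:126325689-126325938, minus strand: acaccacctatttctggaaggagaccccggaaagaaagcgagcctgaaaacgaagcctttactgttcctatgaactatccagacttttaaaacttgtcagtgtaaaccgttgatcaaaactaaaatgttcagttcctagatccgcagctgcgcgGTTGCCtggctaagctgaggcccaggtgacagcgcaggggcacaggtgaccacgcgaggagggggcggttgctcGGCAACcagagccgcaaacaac
Spag16, chr1:69826720-69826969, plus strand: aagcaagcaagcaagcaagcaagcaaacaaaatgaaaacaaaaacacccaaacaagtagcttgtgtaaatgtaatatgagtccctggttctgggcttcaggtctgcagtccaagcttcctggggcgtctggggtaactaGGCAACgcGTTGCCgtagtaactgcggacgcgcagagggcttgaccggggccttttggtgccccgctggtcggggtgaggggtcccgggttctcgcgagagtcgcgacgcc
Dnah7a, chr1:53706785-53707034, minus strand: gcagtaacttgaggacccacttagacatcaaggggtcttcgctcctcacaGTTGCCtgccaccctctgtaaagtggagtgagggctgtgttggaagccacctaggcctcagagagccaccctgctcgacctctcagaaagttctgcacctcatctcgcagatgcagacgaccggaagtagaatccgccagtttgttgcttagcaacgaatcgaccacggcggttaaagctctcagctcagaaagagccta
Cfap206, chr4:34730207-34730456, minus strand: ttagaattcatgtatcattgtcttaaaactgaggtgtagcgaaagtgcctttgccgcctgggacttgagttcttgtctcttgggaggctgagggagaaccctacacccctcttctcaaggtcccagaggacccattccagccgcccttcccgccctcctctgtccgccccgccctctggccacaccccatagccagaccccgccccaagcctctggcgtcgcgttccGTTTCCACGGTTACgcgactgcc
In Tekt1 the matches began 35 and 15 bases before the start, in Tekt2 they began at 96 and 22 bases, and in Spag16 at 111 and 103 bases. Dnah7a held 1 match, 200 bases before the start, and the Cfap206 X-box began 23 bases before it. Genes with these letters were found both among those higher in cells (Ccdc153, Dynlrb2 and Cfap298) and among those lower in cells (Spag16, Dnah7a and Hydin) in the comparison of ciliated barcodes given further on.

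Each library held 27148272 to 35962788 counts, over 6849 to 11934 barcodes, with a median of 2521 to 4152 counts per barcode. After filtering, 11934 cells, 6756 nuclei of replicate 1 and 9628 nuclei of replicate 2 were kept. Barcodes were clustered without the 78 genes and named from other markers, so that none of the 78 set the classes. Other ciliary genes could enter the clustering, and some, such as Dnali1 and Ccdc113, were among the markers. The classes are therefore not independent of genes that act with the 78, and levels across classes are description alone. 20 to 24 barcode sequences were shared between any pair of libraries. The highest number of genes per barcode in the deposited tables was 2499, 2499 and 2999.

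The cluster named ciliated (from 19 markers such as Tppp3, Sntn and Cdhr3) held 116 of 11934 cells (0.972%, exact binomial 95% interval 0.804 to 1.165%). It held 75 of 6756 nuclei in replicate 1 (1.11%, 0.874 to 1.39%) and 650 of 9628 in replicate 2 (6.751%, 6.258 to 7.271%). Replicate 2 therefore stood apart from the other nucleus library and from the cells, beyond counting error. Its deposited barcodes reached 2999 genes, against 2499 in the other libraries. Its ciliated nuclei had a median of 3738.5 counts, beside 2521 over all its barcodes. The part of this upper limit in the share was not tested. Intervals cover counting error only. At least 18 of the 19 markers had counts in the ciliated class of every library. All 10 club cell markers had counts in the ciliated class of every library. In the cell library 6 of the 10 were raised in the ciliated cluster over the other clusters, and no separate club cluster was found there. Scgb1a1, a club marker, was at 7034 CPM (counts scaled to 1000000 per class and library) in ciliated cells and at 14970 and 11440 CPM in ciliated nuclei. In B cells, which should lack it, it was at 1096, 24810 and 29430 CPM. The part of free airway RNA in the levels that follow was not tested.

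The axoneme genes were concentrated in ciliated barcodes in all 3 libraries. They took 2.467% of all counts of ciliated cells, and 4.439% and 4.555% of those of ciliated nuclei. Among the other named classes with at least 50 barcodes, the share was 0.0714 to 0.1005% in 19 classes of cells, 0.1202 to 0.2031% in 16 classes of nucleus replicate 1 and 0.1403 to 0.3697% in 18 classes of replicate 2. The ciliated share was thus 24.6, 21.9 and 12.3 times that of the next class. The lowest nucleus classes were AT1 epithelium in both replicates, and the highest was T, NK or ILC2 lymphocytes in replicate 1 and monocytes in replicate 2. Across classes, the share and the median counts per barcode had a Spearman rho of -0.479 in cells (19 classes), -0.747 in nucleus replicate 1 (16) and -0.845 in replicate 2 (18). Classes of 1 library share its depth and free RNA, and shallow classes tended to have the higher shares. An exception in cells was the highest class, alveolar macrophages (0.1005%), with a median of 3243 counts per barcode.

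**Figure D1:**
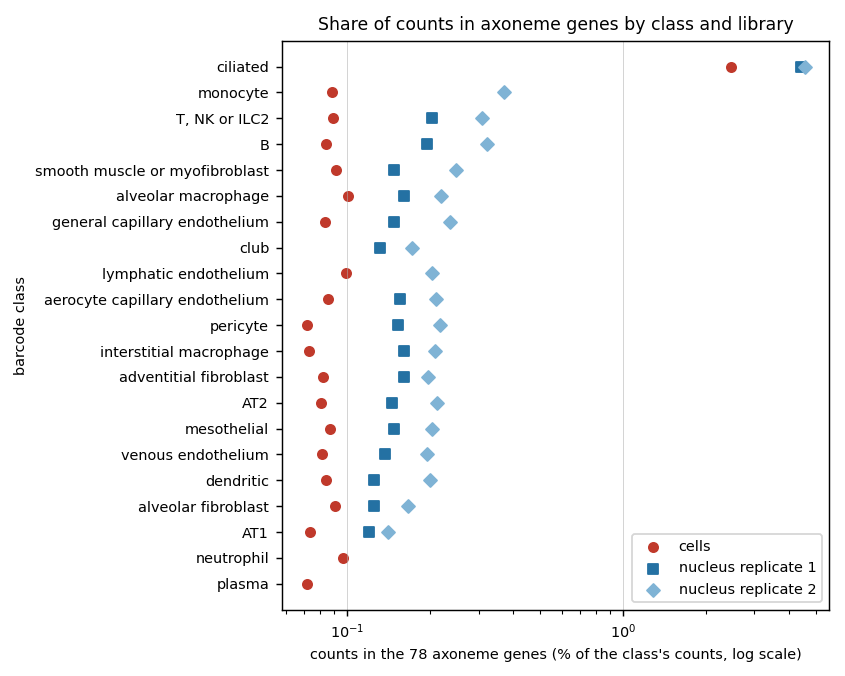
Share of each class's counts (percent, log axis) that fell in the 78 axoneme genes. Each point is 1 class in 1 library, drawn for classes with at least 50 barcodes. Ciliated barcodes sit at 2.467% in cells and at 4.439% and 4.555% in nuclei, and every other class sits at or below 0.3697%.

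Single ciliated barcodes carried many of the genes at once. The median number of the 78 genes with a count was 34 per ciliated cell and 41 and 43 per ciliated nucleus. With each barcode thinned to 1000 counts, the medians were 18, 23 and 24. No ciliated barcode was left out by thinning. The lowest thinned barcode still had 3 of the genes in cells, 11 in nucleus replicate 1 and 14 in replicate 2. In the other classes the unthinned medians were 2 or 3 genes in cells and 4 to 6 in nuclei. Single thinned barcodes of other classes reached 11 genes in cells (alveolar fibroblasts) and 17 in nucleus replicate 2 (mesothelial cells), above the lowest ciliated barcodes. In replicate 1 the highest was 9 (pericytes).

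Although ciliated barcodes were few, they held 21.72% of the cells' axoneme counts, 24.11% of those in nucleus replicate 1 and 70.35% in replicate 2. Gene by gene, the level in the other named classes was a median of 1.39% of the ciliated level in cells, 3.28% in nucleus replicate 1 and 5.94% in replicate 2, over the 70, 68 and 76 genes with more than 3 ciliated counts. 26 genes were under 1% in cells, and none in either nucleus library. Cfap221, a central pair gene, was at 145.5 CPM in ciliated cells and at 0.205 CPM in the other cells. In nuclei it was at 369.3 and 252 CPM in ciliated barcodes and at 5.02 and 5.95 CPM in the others. Dnah5, an outer arm heavy chain, was at 898.5 CPM in ciliated cells and 2.13 CPM in the others, and at 1404 and 1432 CPM against 32.9 and 54.4 CPM in nuclei. Both genes separated the classes in every library, and by more in cells than in nuclei.

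7 of the 67 genes with more than 3 ciliated counts in every library reached over 10% of the ciliated level elsewhere in all 3 libraries. They were Cfap410, Rsph3a, Cfap97, Cfap20, Cfap298, Cfap36 and Cfap157, named here because the count is small. No such count was made over all genes. Cfap97 was at 67.3, 119 and 123.6% of its ciliated level. Cfap36, which binds the small GTPase ARL3, was at 40.4, 40.2 and 47.8%. Cfap20, a protein of the inner junction of the doublet, was at 22.5, 42.7 and 33.4%. Neither Cfap36 nor Cfap20 overlaps another annotated gene, while Cfap97 overlaps Snx25 on the opposite strand and Gm15634 on the same strand.

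A few genes were higher in 1 other class than in the rest. Among 15 classes other than ciliated with at least 50 barcodes in every library, 6 genes had the same highest class in all 3 libraries. Of these, 3 had at least 20 counts there each time. No such count was made over all genes. Dnah11, a heavy chain of the outer arm near the base of the cilium, was highest in alveolar macrophages. It was at 71.7, 137 and 483.2 CPM there in cells, nucleus replicate 1 and replicate 2, against medians over the 15 classes of 6.98, 25.1 and 52.1 CPM. Aerocytes, the large capillary cells of the alveolus, came second for Dnah11 in every library (52.8, 117.3 and 167.3 CPM), and in nucleus replicate 1 the Poisson interval of macrophages (109 to 170.1 CPM) held the aerocyte value. Ciliated barcodes remained higher, at 847.1, 1230 and 1217 CPM. Dnah11 overlaps Cdca7l on the opposite strand.

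Dnah8, a heavy chain known from sperm, had its highest level outside the ciliated class, in T, NK or ILC2 lymphocytes, at 69.9, 105 and 106.3 CPM, above ciliated barcodes at 20, 3.48 and 13.4 CPM. At 1000 counts per barcode, 6.18, 7.12 and 9.42% of lymphocytes had a Dnah8 count, against 1.72 and 0.923% of ciliated barcodes in cells and nucleus replicate 2. In nucleus replicate 1 it was 0 of 75 ciliated barcodes, which allows up to 4.8% (exact binomial 95% interval). Dnah8 overlaps Glo1 and 3 other annotated genes on the opposite strand. Cfap69, a central pair gene outside the rule for named genes and chosen after its values were seen, was highest in aerocytes at 23.8, 87.8 and 76.2 CPM. Its ciliated levels were 370.8, 540 and 630.7 CPM.

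Cfap299, which overlaps Gm11111 on the same strand and 1700010H22Rik on the opposite strand, was found at a low level in every class. At 1000 counts per barcode it had a count in 77.6, 88 and 91.2% of ciliated barcodes, and in 7.23 to 16.9%, 3.53 to 13.5% and 7.06 to 17.4% of barcodes over the 15 other classes. Cfap77, a protein of the doublet lumen, was at 205.3 CPM in alveolar macrophages of the cell library and at 25.1 and 49.9 CPM in those of nucleus replicates 1 and 2. The medians over the 15 classes were 61.3, 23.5 and 36 CPM. By the share of thinned barcodes with a count, alveolar macrophages were the highest of the 15 for Cfap77 in cells (18.2%) and nucleus replicate 1 (5.23%), but not in replicate 2. Foxj1, by contrast, had a count in at most 0.444% of barcodes of any of the 15 classes in cells, against 15.5% of ciliated cells. In nuclei its highest share elsewhere was 4.76 and 4.35%, beside 9.33 and 8.31% of ciliated nuclei.

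**Figure D2:**
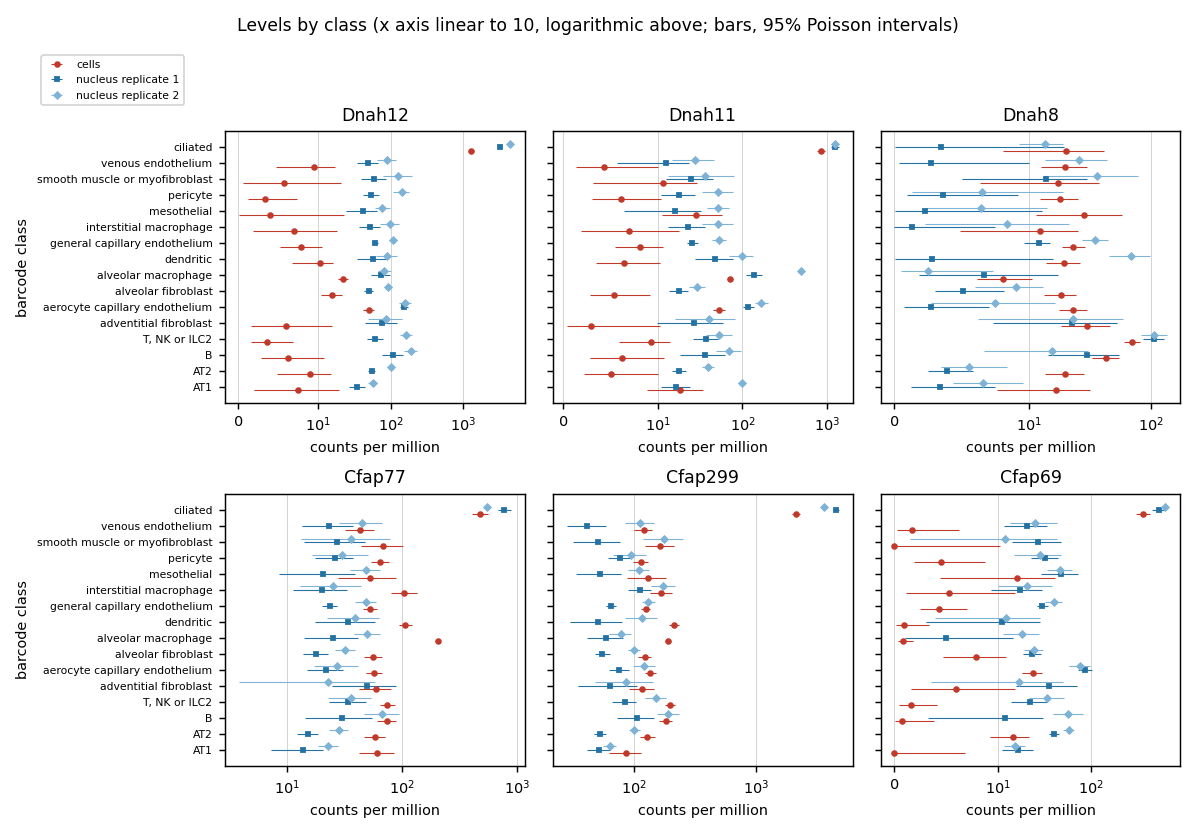
Level of 6 axoneme genes in each class (CPM, linear to 10 and logarithmic above, with 95% Poisson intervals of counting error) in cells and both nucleus replicates. Dnah12 is highest in ciliated barcodes, Dnah11 is also raised in alveolar macrophages (71.7, 137 and 483.2 CPM), and Dnah8 is highest in T, NK or ILC2 lymphocytes (69.9, 105 and 106.3 CPM).

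Levels in cells and nuclei were compared first within the clusters named ciliated, which may not hold the same mix of cells in the libraries. Cyp2f2, another club marker, was at 964.1 CPM in ciliated cells and at 665.5 and 531.4 CPM in ciliated nuclei, and its part in the result was not tested. Summed counts entered the quasi-likelihood test of edgeR, 1 cell library against 2 nucleus libraries. Log2 folds are cells over nuclei, and CPM in these comparisons are scaled by the trimmed mean of M-values (TMM). The test covered 7900 genes, with 14.0% of them higher in the cell library and 11.0% lower at an adjusted p under 0.05. 67 axoneme genes were tested, of which 5 were higher and 30 lower. Their median log2 fold was -0.76, against -0.05 over all genes tested. The 11 genes left untested had at most 66 counts in any library. The number of calls depended on the method: DESeq2 called 0 higher and 13 lower, all 13 among the 30. Among all genes it called 3.68% higher and 2.1% lower. Requiring counts of at least 4 ciliated markers within the cluster, an alternative added after seeing the data, left 2 higher and 12 lower with a median of -0.67. Among all genes 9.06% were then higher and 3.56% lower. Taking barcodes by that marker count alone gave no call among any of the genes tested and a median of -0.08. In nucleus replicate 1, only 72 of the 221 barcodes so chosen lay in the ciliated cluster.

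The direction followed gene span. Of 15 axoneme genes under 20 kb, 10 were tested, and 5 were higher and 0 lower, with a median log2 fold of 0.90. Of 32 genes tested between 20 and 80 kb, 0 were higher and 12 lower (median -0.73). Of 25 genes over 80 kb, 0 were higher and 18 lower (median -1.04). The filter on low counts can keep a gene through the single library where it is high. With no filter, 2 axoneme genes were higher, beside 5.69% of all genes. The median of the shortest genes was then smaller, as given in the last section. Over all genes tested the medians were in the same order, at 1.24, -0.19 and -0.52. Among all genes, 33.1% of those under 20 kb were higher and 3.35% lower. Between 20 and 80 kb the shares were 6.31% and 9.28%, and over 80 kb they were 7.06% and 21.4%. The 5 genes called higher spanned 4.70 to 13.1 kb and the 30 called lower spanned 31.9 to 898.2 kb, so the spans did not overlap. Spearman's rho between fold and span was -0.667 across the 67 genes and -0.47 across 7896 genes with a position. These are correlations across genes, which share the 3 libraries. With exon length in place of span, rho was -0.583 and -0.244.

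**Figure D3:**
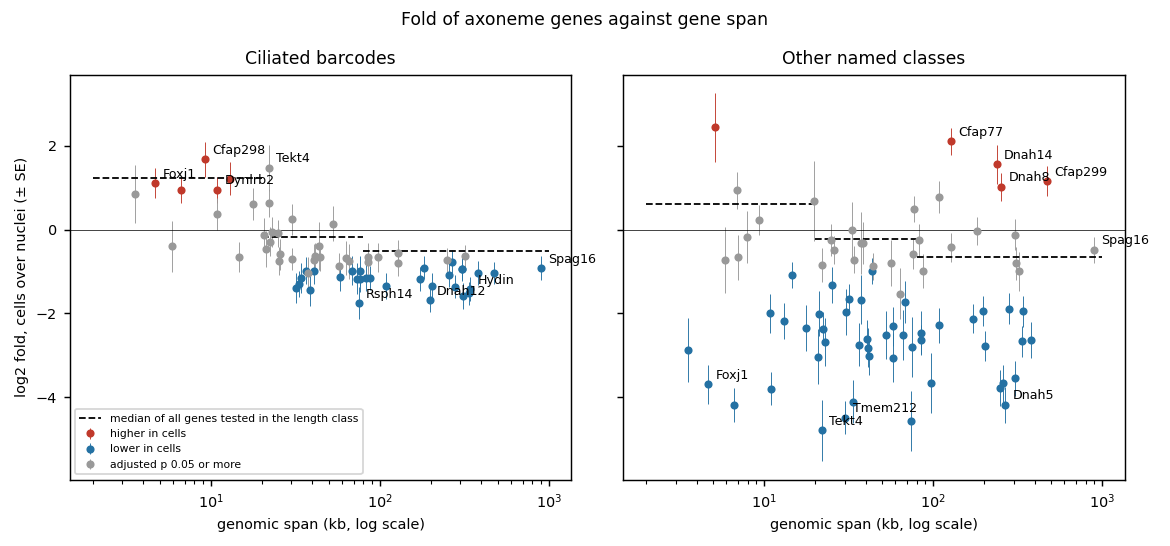
Log2 fold of cells over nuclei (± SE) against genomic span (kb, log axis) for each axoneme gene, in ciliated barcodes on the left and in all other named classes on the right. Dashed lines are medians of all genes tested under 20, 20 to 80 and over 80 kb. In ciliated barcodes the points fall with span (rho -0.667), and in the other classes rho was 0.0436.

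The 5 genes higher in ciliated cells included the regulator of the set. Foxj1 was at 225 TMM-scaled CPM in ciliated cells and at 139.2 and 84.8 in nucleus replicates 1 and 2. Cells lay above both replicates, with a log2 fold of 1.11 (SE 0.358, adjusted p = 0.0294). Ccdc153, a coiled-coil protein of ciliated cells, was at 473 in cells and at 204.9 and 273.6 in nuclei (0.95, SE 0.307, adjusted p = 0.0293). Dynlrb2, a roadblock light chain of dynein, was at 317.3 in cells and at 154.6 and 170.1 in nuclei (0.95, SE 0.305, adjusted p = 0.0289). Cfap126 and Cfap298 had log2 folds of 1.22 and 1.68. Cfap298, which takes part in dynein assembly, was at 112.5 in cells against 23.2 and 39.2 in nuclei, on 6 and 90 nucleus counts, and its log2 fold was 2.29 without nucleus replicate 2. DESeq2 called none of these 5.

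The dynein heavy chains, which are the motors of the arms and among the longest genes, were lower in ciliated cells. Of 15 heavy chains 12 were tested, and 9 were lower and 0 higher, with a median log2 fold of -1.11. Dnah12, an inner arm heavy chain, was at 1304 TMM-scaled CPM in ciliated cells and at 3599 and 4797 in nuclei. Its log2 fold was -1.69 (SE 0.28, adjusted p = 0.000265), and cells lay below both nucleus libraries. Dnah9, an outer arm chain, was at 721.1 in cells and at 2215 and 1941 in nuclei (-1.53, SE 0.285, adjusted p = 0.000763). Dnah7a was at 297.1 against 842.7 and 940.5 (-1.59), with the limit that its copies Dnah7b (-0.93) and Dnah7c (-1.04) share its sequence. Dnah6 (-1.34) and Dnah5 (-0.76) were also lower. Dnah11 had a log2 fold of -0.64 and did not pass the test (adjusted p = 0.0962).

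Central pair genes were mostly lower as well. 12 of 13 were tested, 9 were lower and 0 higher, and the median log2 fold was -1.11. Hydin, a giant protein of the central pair, was at 816.3 in ciliated cells and at 2269 and 2108 in nuclei (-1.42, SE 0.279, adjusted p = 0.00116). Spag16, the longest gene of the set, was at 793.2 in cells and at 1685 and 1326 in nuclei (-0.92, SE 0.288, adjusted p = 0.0256). Spag17 and Cfap54 had log2 folds of -1.09 and -0.94, Cfap221 and Cfap65 of -1.17 and -1.30, all past the threshold. Cfap47 (-0.73) was not. Hydin overlaps Gm26832 on the opposite strand.

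Radial spoke genes were mixed. 9 of 10 were tested, with 3 lower and 0 higher and a median of -0.63. Rsph14 had the lowest log2 fold of the set, at 80.8 TMM-scaled CPM in ciliated cells against 216.5 and 313.6 in nuclei (-1.75, SE 0.384, adjusted p = 0.0027). Rsph14 overlaps Gnaz on the opposite strand. Cfap61, a protein at the base of the spokes, had a log2 fold of -1.36 and was called. The values for Cfap206 (-0.63, adjusted p = 0.138) and Rsph1 (-0.29, adjusted p = 0.548), a protein of the spoke head, were not past the threshold.

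In the nexin-dynein regulatory complex, Drc3 was lower in cells (-0.98), and Drc1 (-0.65) and Drc7 (-0.05) did not pass the test. Of the intermediate chains of the outer arm, Dnaic1 was lower (-0.98, adjusted p = 0.0449) and Dnaic2, a gene of 30.5 kb, was at 118.3 in cells and 104.4 and 97 in nuclei (0.25, adjusted p = 0.648). No tektin was called. Tekt1, Tekt2 and Tekt4 had log2 folds of 0.62, 0.85 and 1.47, on 20, 1 and 2 counts in nucleus replicate 1. Without nucleus replicate 2 the values for Tekt2 and Tekt4 were 3.29 and 3.19. No fold was fitted for Tekt3 and Tekt5, which were not tested.

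Among 20 other Cfap genes tested, 2 were higher and 5 lower, beside 14.0% and 11.0% of all genes tested, with a median of -0.66. Cfap299 was at 2149 in ciliated cells and at 5014 and 3823 in nuclei (-1.04, adjusted p = 0.00824). Cfap43 and Cfap44, both of the tether that holds an inner arm dynein head to the doublet, had log2 folds of -0.91 and -1.16 and were called. Cfap43 overlaps Gsto1, Gsto2 and Itprip. Cfap99 was lower (-1.45). Cfap77 (-0.56), Cfap73 (-0.40), Cfap36 (-0.59) and Cfap20 (-0.66) were not called. Ccdc40, part of the ruler that spaces the arms, was lower (-0.98), and Tmem212 had a log2 fold of -0.70 with an adjusted p of 0.0601.

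**Figure D4:**
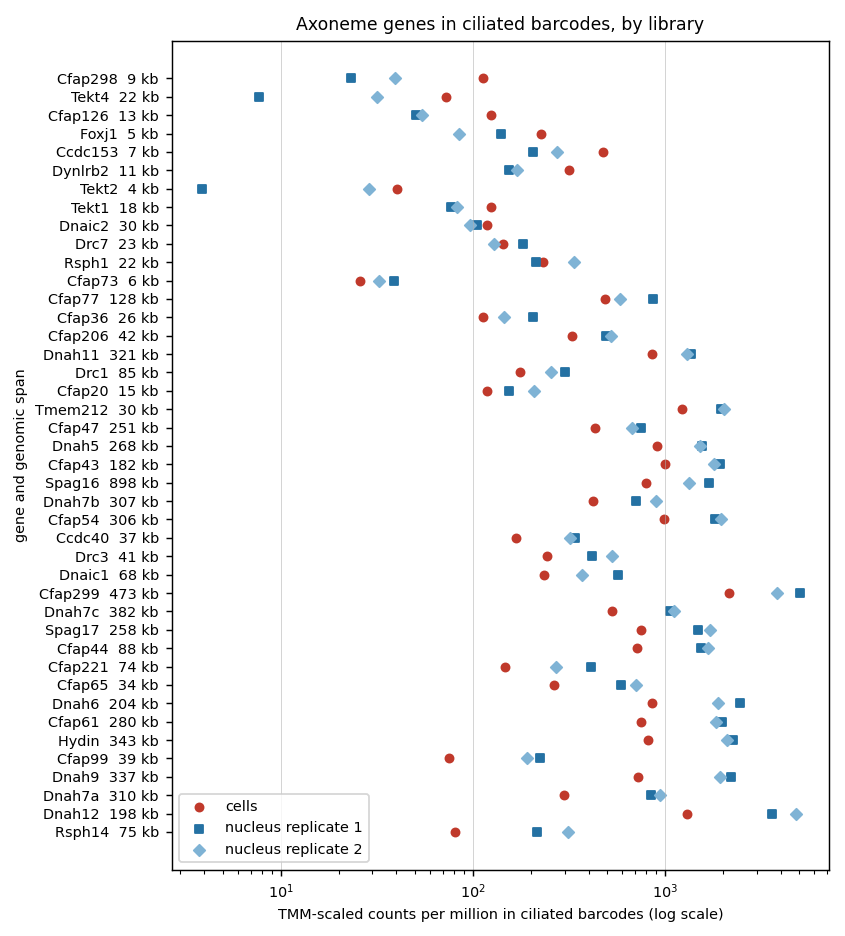
TMM-scaled CPM (log axis) of named axoneme genes in ciliated barcodes of each library, ordered by log2 fold of cells over nuclei from the lowest at the bottom, with the genomic span beside each name. Cells lie left of both nucleus replicates for the lower genes, such as Rsph14 (80.8 against 216.5 and 313.6), and right of both for Foxj1 (225 against 139.2 and 84.8).

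Genes of other ciliary pathways, from lists of related function, were compared in the same barcodes, where 14.0% of all genes tested were higher and 11.0% lower. Among 16 ciliary nucleotide and tubulin enzymes, 0 were higher and 11 lower (median log2 fold -1.07), for example the adenylate kinase Ak9 (-1.26). Of 10 dynein assembly factors tested 0 were higher and 4 lower, among them Daw1 (-1.05) and Dnaaf5 (-1.27). Of 4 tested genes of the complex that docks outer arms, Armc4 (-1.48) and Ccdc114 (-1.12) were lower and 0 higher. Of 8 tested regulators of multiciliogenesis, Rfx2 (-1.78) and E2f5 (-1.74) were lower and 0 higher, and Rfx3 had a log2 fold of -0.74 with an adjusted p of 0.0576. Among 21 genes of intraflagellar transport, 3 were lower, a share near that of all genes, and 1 was higher, Ift20, a gene of 5.38 kb (1.55). Cytoplasmic dynein is the motor that all cells use to carry cargo along microtubules. 4 of its 9 tested genes were higher and 1 lower, with a median of 1.27, and the short light chain gene Dynll1 was at 597.1 in cells against 58 and 44.4 in nuclei (3.63). The heavy chain Dync1h1, at 65.5 kb, was also higher in cells (1.27).

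In all other named classes summed, most axoneme genes were lower in cells than in nuclei. The mix of classes in this sum differed between libraries. Alveolar macrophages were 2189 of 11404 barcodes in cells, and 153 of 6542 and 420 of 8696 in nucleus replicates 1 and 2. Neutrophils were a class in cells alone, and club cells in nuclei alone. Class mix and preparation cannot be told apart in these folds. The test covered 19617 genes, of which 20.8% had higher levels in cells and 14.0% lower levels. Of the 78 axoneme genes, 5 were higher and 46 lower, with a median log2 fold of -1.92, or -2.06 and -1.68 without nucleus replicate 1 or 2. Spearman's rho between fold and span was 0.0436 across the 78 genes and -0.333 across all genes. Of 15 axoneme genes under 20 kb, 1 was higher and 8 lower, where all genes of that span gave 31.4% and 7.58%. Of 35 between 20 and 80 kb, 0 were higher and 23 lower, beside 14.2% and 16.9% of all genes. Of 28 over 80 kb, 4 were higher and 15 lower, beside 6.5% and 24.8%. The median log2 fold of the axoneme genes under 20 kb was -1.09, where that of all genes of this span was 0.61. The shortest class was thus less negative than the others, at -1.97 between 20 and 80 kb and -1.92 over 80 kb. Medians of all genes of those spans were -0.22 and -0.66. The lowest folds belonged to genes that were nearly absent from the other cells. Tekt4 was at 0.188 TMM-scaled CPM in cells and at 4.80 and 5.89 in nuclei (-4.80, SE 0.735). Tmem212, a membrane protein gene of ciliated cells, was at 2.35 in cells and at 48.6 and 57.6 in nuclei (-4.50, SE 0.397, adjusted p = 7.26e-05). Ccdc153 was at 1.98 in cells and at 32 and 40.3 in nuclei (-4.19), and Foxj1 at 1.32 against 18.5 and 15.7 (-3.70). Cells lay below both nucleus libraries for each of the 46. Scgb1a1, a transcript of club cells, moved with them: in B cells it was at 1096 CPM in the cell library and at 24810 and 29430 in nuclei. The 19 ciliated markers, none of them among the 78 genes, did so too, with a summed level in B cells of 123.1 CPM in cells and 509.1 and 764.1 in nuclei and 16, 17 and 18 of them with counts. The part of either in the result was not tested.

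The 5 genes higher in cells outside the ciliated class were Cfap77, Cfap299, Dnah14, Dnah8 and Dnah2os. The mix of classes differed between libraries, with more alveolar macrophages among the cells, and its part in these folds was not tested. Cfap77 was at 111.3 in cells and at 21.4 and 30.4 in nuclei (2.11, SE 0.32, adjusted p = 0.000822). Cfap299 was at 173.2 against 63.2 and 91.6 (1.16, adjusted p = 0.0273), and Dnah8 at 23.7 against 10.4 and 12.9 (1.02, adjusted p = 0.0388). Dnah14, a heavy chain, had a log2 fold of 1.56. Dnah2os, an antisense gene within Dnah2, had one of 2.44, on 67, 15 and 5 counts. Without TMM scaling 1 of the 5 was called, and with DESeq2 2, beside 15.6% and 16.2% of all genes called higher.

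The fold of cells over nuclei differed between ciliated barcodes and the other classes for 27 of 78 genes. This was tested as an interaction in edgeR with a term for library, an analysis added after seeing the data. The p-values rest on the spread between the nucleus replicates alone, since the ciliated and other sums of a library are not separate samples. The mix of the other classes also differed between libraries and cannot be told apart from preparation here. Of 18991 genes tested, 1.82% had a fold that was larger in ciliated barcodes and 1.48% one that was smaller, against 24 and 3 of the 78. The median difference of log2 folds was 0.639 over the 78 genes and -0.472 over all genes tested. The middle of all genes was thus below 0. 5 genes were called in opposite directions in the separate comparisons, a count not made over all genes. Foxj1, Ccdc153, Dynlrb2 and Cfap126 were higher in ciliated cells and lower in the other cells, and Cfap299 was lower in ciliated cells and higher in the others. The difference of log2 folds was 4.86 for Ccdc153 (SE 0.524, adjusted p = 6.98e-17), 4.46 for Foxj1 (SE 0.556) and 4.44 for Dynlrb2 (SE 0.527). For Cfap299 it was -2.51 (SE 0.52, adjusted p = 0.000178).

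**Figure D5:**
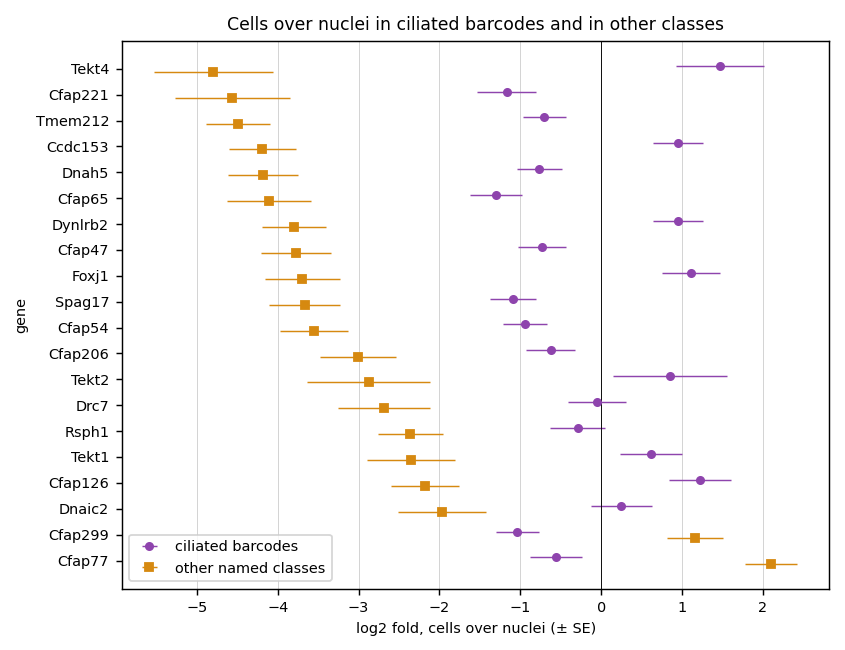
Log2 fold of cells over nuclei (± SE) in ciliated barcodes (circles) and in all other named classes summed (squares), for the named axoneme genes whose difference passed the test. Foxj1 lies at 1.11 in ciliated barcodes and at -3.70 elsewhere, while Cfap299 lies at -1.04 and 1.16.

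Over whole libraries, with all classes summed, the axoneme genes were lower in cells. Calls were made for 16.2% (higher) and 8.05% (lower) of 19782 genes, and of the 78 genes 0 were higher and 28 lower, with a median log2 fold of -2.12. Without nucleus replicate 2, which was rich in ciliated barcodes, the median was -1.39, and without replicate 1 it was -2.55. DESeq2 called 51 lower and edgeR without TMM scaling 11, beside 11.3% and 7.5% of all genes called lower. By span, 6 of 15 genes under 20 kb, 14 of 35 between 20 and 80 kb and 8 of 28 over 80 kb were lower, beside 3.74%, 9.77% and 16.0% of all genes. Calls in the other direction were 0 in each span, beside 24.9%, 10.5% and 5.13%. In bulk sums fewer ciliated cells and less RNA per cell cannot be told apart, and the share of ciliated barcodes was 0.972% in cells beside 1.11% and 6.751% in nuclei. Cfap65, a central pair gene, was at 3.52 TMM-scaled CPM in cells and at 17.7 and 68.7 in nuclei (-3.62, adjusted p = 0.0365). Foxj1 was at 3.64 in cells and at 19.6 and 21.1 in nuclei (-2.48, adjusted p = 0.011). Between the 2 nucleus replicates Foxj1 was thus nearly level while Cfap65 differed, as did Dnah9 at 50.4 and 189.5 and Tmem212 at 66.2 and 214.3. Most Foxj1 counts lay outside ciliated barcodes, which held 6.88 and 32.6% of its counts in named classes of replicates 1 and 2. For Cfap65 they held 32.3 and 82.1%. Within ciliated nuclei Foxj1 was at 125.4 and 79.4 CPM without TMM scaling. Cfap299, at 195.6 in cells and 109.6 and 385.9 in nuclei, and Cfap77, at 117.5 against 29.2 and 73.8, were not called.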

How the data were processed

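Lung cells (1 library) and nuclei (2 libraries) were profiled with 10x 3' kits. The deposited tables hold counts per gene and barcode, judged from their whole-number values and taken here as UMI counts. The submitters' processing notes name mm10 and STAR 2.5.3a. The counting program and the handling of intronic reads, which bears on long genes, were not given in the sources used here. The genes described and all lists were chosen with earlier results of these data known.

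Barcodes with at least 400 genes and at most 20% mitochondrial counts were kept. Scrublet in scanpy 1.11.5 marked 11 cells, kept because calls under 0.5% were not used, and 85 and 178 nuclei, which were removed. Cells and nuclei were clustered apart (Leiden, resolution 1, igraph 0.11.9, 2000 variable genes, 30 components, 20 neighbours) without the 78 genes. A cluster of 168 cells with B and monocyte markers was left out of the classes by a rule set after seeing the data, as were unnamed barcodes. Counts were summed per library and class. edgeR 4.0.16 (R 4.3.3; TMM, filterByExpr, quasi-likelihood, Benjamini-Hochberg over all genes tested, adjusted p under 0.05) was fitted with 1 residual degree of freedom. DESeq2 1.42.0 was an alternative. On simulated data for ciliated barcodes (7358 genes), 50 genes were changed at each fold. Of genes changed 2, 4, 8 and 16-fold, 12, 62, 90 and 98% were called, with 4 false among 135 calls. For the interaction (18466 genes) the shares called were 2, 22, 70 and 72%. Few genes were changed there, while in the real ciliated comparison 14.0% were called higher and 11.0% lower. Some folds under 2 were called in it, so the simulated shares describe the simulation alone.

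Positions came from GENCODE M21 (GRCm38), with Cfap47 and Cfap410 from RefSeq, for 21478 of 21507 genes. Named genes were, in each role, the 3 highest in ciliated barcodes. To these were added the 6 largest calls per comparison and direction, the 4 longest and 4 shortest tested, and genes in 5% of thinned barcodes of a class other than ciliated and club in every library. Other genes were named where a count was small.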

Additional observations from a re-analysis of the deposited data

Results flagged for a closer look

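The fold of cells over nuclei differed between ciliated barcodes and the other classes, by the interaction test in edgeR, for 20 named axoneme genes. Differences of log2 folds above 0 mean a higher fold in ciliated barcodes, and the median over all genes tested was -0.472. They were 6.06 for Tekt4, 4.864 for Ccdc153, 4.462 for Foxj1, 4.443 for Dynlrb2, 3.654 for Tekt2 and 3.49 for Tmem212. They were 3.128 for Cfap126, 3.094 for Dnah5, 3.076 for Cfap221, 2.73 for Cfap47, 2.697 for Tekt1 and 2.508 for Cfap65. The rest were 2.317 for Drc7, 2.293 for Cfap54, 2.259 for Spag17, 2.073 for Cfap206, 1.92 for Dnaic2 and 1.814 for Rsph1. Cfap77 at -2.956 and Cfap299 at -2.507 went the other way. The adjusted p ran from 6.98e-17 for Ccdc153 to 0.0306 for Dnaic2. These values rest on the spread between the nucleus replicates alone, and the mix of the other classes differed between libraries. Tekt4 and Tekt2 rested on 2 and 1 counts in ciliated nuclei of replicate 1.

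Spag17os, whose symbol begins with Spag17, was a row of the nucleus table alone and entered no comparison. It had 8 counts in nucleus replicate 1 and 22 in replicate 2. The lack of a row in the cell table is not a measured count of 0, so its level in cells is not known.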

How the results depend on the processing

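No paired analysis was possible because there was 1 cell library and no label ties it to a nucleus library. In whole libraries, calls lower in cells numbered 11 with total-count scaling, 43 with no filter on low counts and 51 with DESeq2, and no filter gave 1 higher. The shares of all genes called lower were 7.5%, 9.36% and 11.3%, and with no filter 16.6% were called higher. The Spearman correlation with span was -0.293 without nucleus replicate 1 and turned to 0.0159 without replicate 2. In ciliated barcodes, calls higher in cells were 2 with no filter, 0 with DESeq2, 0 by the marker count alone and 2 by cluster and marker count together. The shares of all genes called higher were 5.69%, 3.68%, 0.0% and 9.06%. Calls lower in cells were 13 with DESeq2, 0 by the marker count alone and 12 by both, beside 2.1%, 0.0% and 3.56% of all genes. The median log2 fold was -0.6441 with total-count scaling, -0.9457 with no filter, -0.7318 with DESeq2, -0.8055 when the 78 genes were kept in clustering and -0.08016 by the marker count alone. It was -0.7521 to -0.7489 with 1 nucleus replicate left out. Medians by length were, for the shortest genes, 0.623 with exon length and 0.287 with no filter, and 0.687 to 0.898 with 1 replicate left out. For the middle class they were -0.588 with cuts at 10 and 50 kb, -0.645 with exon length, -0.907 with no filter, -0.617 with total-count scaling and -0.713 to -0.692 with 1 replicate left out. For the longest they were -1.14 with no filter and -0.912 with total-count scaling. The Spearman correlation was -0.583 with exon length, -0.408 with no filter and -0.681 to -0.617 with 1 replicate left out. In the other classes, calls higher in cells were 1 with total-count scaling, 2 with DESeq2 and 3 at Leiden resolution 2, beside 15.6%, 16.2% and 17.9% of all genes. The Spearman correlation there was 0.00555 with exon length and 0.0173 to 0.0524 with 1 replicate left out. By marker count alone, ciliated barcodes made up 3.271% and 7.966% of nuclei in replicates 1 and 2. Thinned to 500 counts, ciliated barcodes held a median of 10, 15 and 15 of the genes. For single named genes, 67 values fell short of the threshold under an alternative, 4 passed it newly, and 0 called values changed sign. Another 15 values moved beyond the spread between the nucleus replicates when 1 of them was left out, among them Tekt2 to 3.29, Tekt4 to 3.19 and Cfap298 to 2.29 in ciliated barcodes without replicate 2. The causes were not tested. With 1 nucleus replicate left out no test remained, so those are values alone. In the simulation, where few genes were changed, 2-fold differences mostly escaped the test.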
